A study of Rattus norvegicus with 8 samples.

Results

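The MCM2-7 genes, Mcm2 to Mcm7, encode the 6 subunits of the replicative helicase and were described here in the rat hypothalamus 24 hrs after an injection of retinoic acid (RA) into the third ventricle. They were chosen by the RA over vehicle log2 ratios of these same arrays, in which Mcm3 differed more than the other subunits, so the ratios given for them are a description and carry no test. Of the 6 genes, 5 had a probe that could be matched to a rat symbol, among 15159 genes matched in all. Mcm5 had no matched probe and is described by its promoter only. For each gene the brightest probe was used and every other probe is listed.

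The samples were frozen hypothalamic blocks, including the arcuate nuclei, of male F344 (F344N) rats kept in a short-day photoperiod. Through a cannula, 4 rats received 5 μl of all-trans RA and 4 received vehicle. The labels give 1e-05 M RA and saline, whereas the study's methods give a higher RA concentration and DMSO in saline as the solvent, so the dose is not settled. Ages are not given in the sources used here. RNA from 1 RA and 1 vehicle sample was hybridised together on each of 8 two-colour arrays, with RA in Cy5 on arrays 1, 3, 6 and 8 (the Cy5 arrays) and in Cy3 on arrays 2, 4, 5 and 7 (the Cy3 arrays). On the slide, arrays 1 to 4 made up row 1 and arrays 5 to 8 made up row 2. The study's methods describe dye-swaps, in which the same samples were used again with the dyes exchanged. The labels do not say which arrays share RNA. The 8 arrays are thus not 8 independent animals per group. The study used the comparison to look for genes that respond to RA in the hypothalamus.

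In dividing cells the MCM2-7 proteins form a ring that is loaded onto replication origins in G1, by ORC, Cdc6 and Cdt1, and geminin blocks a second loading. In S phase Cdc45 and the GINS complex join the ring to make the active helicase, which unwinds DNA ahead of the polymerases. The MCM2-7 genes are classic targets of E2F transcription factors, are transcribed in late G1 and S phase, and are widely used as markers of cells that can divide. Most neurons of the adult brain have left the cell cycle, whereas glial cells and their precursors can still divide. In a block of tissue, a change in the number of cells that express a gene and a change in its RNA per cell cannot be told apart.

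Because the promoters of these genes are textbook E2F targets and the members were chosen as a group, their sequences are shown first. RefSeq promoters on GRCr8, each 300 bases long with 250 bases before the start and 50 from it, were held for Mcm2, Mcm3, Mcm5, Mcm6 and Mcm7. Mcm4 had no entry. They were searched on both strands for the E2F-like octamers TTTCGCGC, TTTCCCGC, TTTGGCGC and TTTGCCGC, which can overlap each other. The 150 bases before the start and the 30 from it are printed 5′ to 3′ on the strand of the gene, with octamer matches in capitals.
Mcm2 (chr4:122918065-122918244, minus strand): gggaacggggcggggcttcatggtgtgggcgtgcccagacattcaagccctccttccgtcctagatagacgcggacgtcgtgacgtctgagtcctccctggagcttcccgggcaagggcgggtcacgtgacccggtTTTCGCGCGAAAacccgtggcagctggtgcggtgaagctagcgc
Mcm3 (chr9:30733717-30733896, minus strand): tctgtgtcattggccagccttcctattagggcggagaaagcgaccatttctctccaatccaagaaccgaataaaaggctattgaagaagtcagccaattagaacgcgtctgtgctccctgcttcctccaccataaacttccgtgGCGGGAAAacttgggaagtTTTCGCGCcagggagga
Mcm5 (chr19:13488663-13488842, plus strand): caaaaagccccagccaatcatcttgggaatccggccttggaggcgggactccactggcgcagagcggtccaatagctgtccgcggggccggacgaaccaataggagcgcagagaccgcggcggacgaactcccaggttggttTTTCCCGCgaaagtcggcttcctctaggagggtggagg
Mcm6 (chr13:42404323-42404502, minus strand): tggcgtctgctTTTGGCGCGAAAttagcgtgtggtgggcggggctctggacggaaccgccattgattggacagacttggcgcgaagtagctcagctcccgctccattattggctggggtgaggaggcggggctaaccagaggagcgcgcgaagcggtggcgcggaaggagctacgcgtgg
Mcm7 (chr12:22163149-22163328, minus strand): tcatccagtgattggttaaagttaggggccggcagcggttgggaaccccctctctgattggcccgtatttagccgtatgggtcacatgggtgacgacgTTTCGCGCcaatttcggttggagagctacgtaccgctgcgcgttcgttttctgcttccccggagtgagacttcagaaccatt

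All 5 windows held at least 1 octamer, compared with 618 of 27457 rat promoters of the same length (2.25%) and 24 of 82 promoters of the other replication and cell cycle genes described below (29.3%). The base at the start given with each promoter is counted as 0. For Mcm2 and Mcm7 the annotated gene reaches further upstream than that start, to bases 122918205 and 22163320. The Mcm2 matches formed 1 palindromic block from -14 to -3 in which an octamer on each strand overlapped. Mcm3 carried 1 match across its start, from -6 to 1, and another from 13 to 20. In Mcm5 a match ended at -1, next to the start, and a pair of overlapping matches lay upstream of the printed stretch, from -213 to -202. The Mcm6 matches overlapped from -139 to -128. Mcm7 had a match from -52 to -45 and another upstream of the printed stretch, from -233 to -226. The pentamer CCAAT, searched on both strands, was present in 4 of the 5 windows and in 37.7% of all promoters. It was in 43 of 82 promoters of the other replication and cell cycle genes (52.4%). In Mcm7 it shared a base with the octamer at -45. Mcm3, Mcm5 and Mcm7 each held 3 copies, Mcm6 held 2 and Mcm2 held 0. A match says that these letters are present and is not evidence of a bound site. All subunits searched held octamers, but only Mcm3 had matches across or after its start. Mcm4 could not be compared, and a link of the octamers with the RNA ratios was not tested.

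The RNA ratios of all 5 measured subunits were above 0 in every array, 40 of 40 values, in both dye orders. As arrays share RNA, these values are not independent. With the background correction used here, Mcm3 stood first with a log2 fold change of 1.92 (SE 0.28), a 3.77-fold higher signal in RA. It was followed by Mcm6 at 0.87 (SE 0.24), Mcm2 at 0.67 (SE 0.16), Mcm4 at 0.55 (SE 0.15) and Mcm7 at 0.38 (SE 0.10), which are 1.82-, 1.59-, 1.46- and 1.30-fold. Except for the step from Mcm6 up to Mcm3, neighbours in this order differed by less than the sum of their standard errors. The median of the 5 genes was 0.67, and that of all 15159 genes was -0.00462. All 5 passed the threshold of the study's methods, an unadjusted p under 0.01, compared with 3.52% of all genes that passed it with a higher signal in RA, but since these ratios chose the genes nothing is read from that count.

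**Figure D1:**
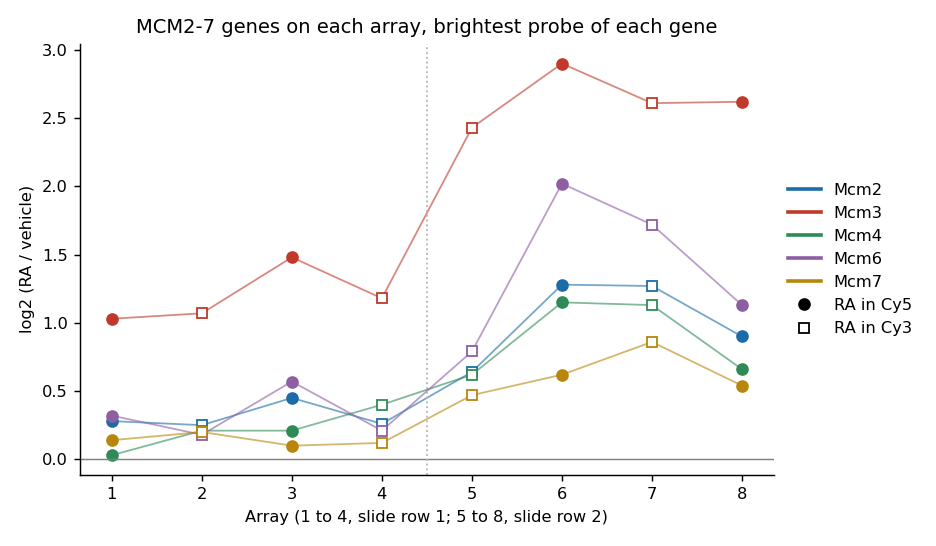
Log2 ratio of RA over vehicle (vertical axis) on arrays 1 to 8 (horizontal axis) for the brightest probe of each measured MCM2-7 gene. Filled circles mark arrays with RA in Cy5 and open squares arrays with RA in Cy3. The lines join the values of a gene and do not mean that arrays have an order. Mcm3 lies between 1.03 and 2.90 and is the highest gene on every array with the background correction used here, and all 5 genes are higher on arrays 5 to 8 than on arrays 1 to 4.

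Mcm3, the subunit through which the ring docks onto ORC and Cdc6 at origins, is gene 316273 and was read by probe A_64_P052745. Its log2 ratios were 1.03, 1.48, 2.90 and 2.62 on arrays 1, 3, 6 and 8 and 1.07, 1.18, 2.43 and 2.61 on arrays 2, 4, 5 and 7. The 4 arrays of the second slide row were therefore all above those of the first row, and each row held both dye orders. Mean ratios were 2.01 on the Cy5 arrays and 1.82 on the Cy3 arrays.

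Mcm6 (gene 29685) was measured by a single dim probe that was well above background in the RA channel of all 8 arrays but in the vehicle channel of only 6. Its log2 ratios were 0.32, 0.57, 2.02 and 1.13 on the Cy5 arrays and 0.18, 0.21, 0.79 and 1.72 on the Cy3 arrays, both in array order. The values were lowest on arrays 2 and 4 and highest on arrays 6 and 7, and both dye orders held low and high values. The vehicle signal was not well above background on arrays 3 and 6, where vehicle was in Cy3. The highest ratio thus rests on a vehicle signal that was not well above background.

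Mcm2 (gene 312538), whose long N-terminal tail also binds histones, had log2 ratios of 0.28, 0.45, 1.28 and 0.90 on the Cy5 arrays and of 0.25, 0.26, 0.64 and 1.27 on the Cy3 arrays. Mcm4 (gene 29728), part of the Mcm4, Mcm6 and Mcm7 core that carries helicase activity, had 0.03, 0.21, 1.15 and 0.66 on the Cy5 arrays and 0.21, 0.40, 0.62 and 1.13 on the Cy3 arrays. Both genes shared the pattern of Mcm6, with their highest values on arrays 6 and 7. Mcm7 (gene 288532) had 0.14, 0.10, 0.62 and 0.54 on the Cy5 arrays and 0.20, 0.12, 0.47 and 0.86 on the Cy3 arrays. It had the smallest change and the smallest spread, an SD of 0.28 over the 8 arrays.

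The arrays rather than the dyes separated the values. Mean log2 ratios on the first and second slide rows were 1.19 and 2.64 for Mcm3, 0.32 and 1.42 for Mcm6, 0.31 and 1.02 for Mcm2, 0.21 and 0.89 for Mcm4, and 0.14 and 0.62 for Mcm7. For all 5 genes the 4 values of the second row lay above the 4 of the first, a pattern shown by 802 of 15159 genes (5.29%). The labels do not tie slide rows to animals, so the slide row and the animals on it cannot be told apart. Over the 8 arrays, which share RNA, the ratios of the 10 pairs of subunits had Pearson correlations from 0.891 (Mcm6 and Mcm7) to 0.991 (Mcm2 and Mcm6). The excess of Mcm3 over the median of the other 4 was present on each array and was smallest on array 1 (0.82) and greatest on array 8 (1.84), with 1.31 for the mean ratios. It was 0.93 on the first slide row and 1.69 on the second.

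The difference between slide rows lay mainly in the RA channel. The Mcm3 log2 intensity ranged from 9.05 to 11.32 in RA (SD 0.95) and from 8.00 to 8.59 in vehicle (SD 0.22). From the first to the second slide row its mean went from 9.31 to 10.98 in RA and from 8.13 to 8.34 in vehicle. The SD of Mcm2 was 0.44 in RA and 0.06 in vehicle. For Mcm7 the SDs were 0.27 and 0.09, for Mcm4 0.42 and 0.23, and for Mcm6 0.54 and 0.22. In each gene, then, the RA signal had the larger SD. The vehicle signal was not constant, and in Mcm4 it ranged from 8.54 to 9.30. On arrays 6 and 7 it was 8.54 and 8.63 for Mcm4 and 6.43 and 6.46 for Mcm6. The high ratios of these genes on those arrays thus also rest on low vehicle values. The lowest RA value lay above the highest vehicle value for Mcm2 (8.19 and 8.03) and Mcm3 (9.05 and 8.59), whereas the groups overlapped for Mcm4, Mcm6 and Mcm7. The genes were chosen by the ratios of these channels, and the share of all genes with such a gap was not counted. Nothing is therefore read from it.

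**Figure D2:**
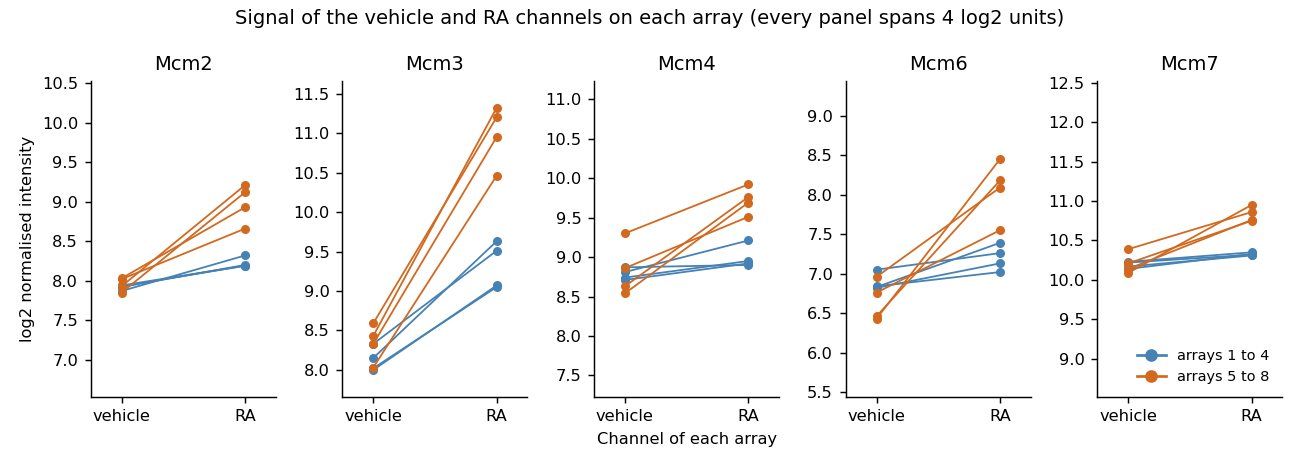
Normalised log2 intensity (vertical axis) of the vehicle and RA channels of each array for the 5 measured MCM2-7 genes. A line joins the 2 channels of an array, blue for arrays 1 to 4 and orange for arrays 5 to 8. For Mcm3 the vehicle values lie at 8.00 to 8.59, while its RA values spread from 9.05 to 11.32. Heights are not comparable between genes, since each probe has its own scale.

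Of the 5 genes, 3 had another probe, and each was dimmer with a smaller log2 ratio. The other Mcm3 probe, A_64_P048461, had 0.62, 0.73, 2.18 and 1.68 on the Cy5 arrays and 0.38, 0.82, 1.09 and 2.17 on the Cy3 arrays, a mean of 1.21 (SE 0.24). It was above 0 on all 8 arrays, like the brightest probe, and well above background on 8 RA and 6 vehicle channels. The other Mcm2 probe, A_44_P223446, had a mean of 0.28 (SE 0.08) and the other Mcm4 probe, A_64_P033939, a mean of 0.16 (SE 0.08). These probes were well above background on only 5 RA and 3 vehicle channels each, most of them Cy5 channels. The Mcm4 probe was above 0 on 6 of 8 arrays.

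**Figure D3:**
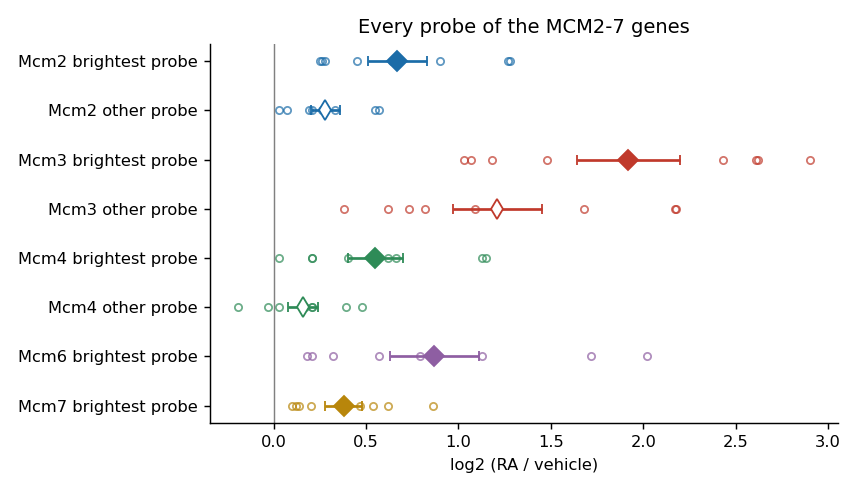
Log2 ratio of RA over vehicle (horizontal axis) for all 8 probes of the MCM2-7 genes (vertical axis). Circles are single arrays, diamonds the mean with its standard error, filled for the brightest probe of a gene and open for another probe. The other probes of Mcm2, Mcm3 and Mcm4 have means of 0.28, 1.21 and 0.16, each below the 0.67, 1.92 and 0.55 of the brightest probe.

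The ratios of dim probes differed with the handling of the background. With no correction the Mcm3 probes gave 1.86 and 1.11, as far apart as with normexp and its offset. With plain subtraction of the background, the Mcm3 probes gave 2.21 and 2.03, the Mcm2 probes 0.86 and 0.81, and the Mcm4 probes 0.63 and 0.47. The probes of each gene were thus closer to each other than with the main correction. Mcm7 moved only from 0.38 to 0.40. Mcm6 moved from 0.87 to 1.73, and its values on arrays 6 and 7, 3.87 and 2.91, then exceeded the 3.14 and 2.80 of Mcm3. Mcm3 was the highest subunit on 8 of 8 arrays with the main correction, with no correction and in the deposited table, on 6 with plain subtraction and on 7 with the ratios of the image software. The mean values of Mcm2, Mcm4 and Mcm7 followed below Mcm3 in the same order under all of these corrections, whereas the gap between Mcm3 and Mcm6 narrowed from 1.92 and 0.87 to 2.21 and 1.73 with plain subtraction.

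The genes most like Mcm3 over the 8 log2 ratios were sought among 9459 other genes well above background in both channels of every array. The 5 with the highest Pearson correlation were Chsy1 (0.990), Rassf4 (0.990), Myd88 (0.989), Cebpb (0.988) and Lpar6 (0.987). Chsy1 makes chondroitin chains, Myd88 is the adaptor of Toll-like and interleukin-1 receptors, and Cebpb is a transcription factor of inflammatory and acute phase responses. Genes most like the median of the other 4 subunits included Scamp2 (0.989), Gins1 (0.984), Gng5 (0.979) and Emc6 (0.979). Gins1, a subunit of the GINS complex, acts in replication. None of these genes was among those most like Mcm3. These genes were picked as the highest of 9459 over 8 arrays that share RNA, so the correlations are a description.

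The other genes of replication and the cell cycle were counted in the same fit. Their lists were written with earlier results of these data known, so the counts are not independent of these data. Of 92 with a probe, 24 were higher in RA and 0 lower at an unadjusted p under 0.01, or 26.1% compared with 3.52% of all genes for higher and 0.792% for lower. Their median log2 fold change was 0.17 and 83 of the 92 were above 0. None had an adjusted p under 0.05, nor did any of the 30367 probes, of which 988 had an unadjusted p under 0.01 and 3292 under 0.05, and the lowest adjusted p was 0.222. With other background handling the count was lower, and so was the share of all genes called higher. It was 5 of 92 (5.43%) with plain background subtraction, compared with 1.02% of all genes, and 1 of 92 (1.09%) with the ratio of the image software, compared with 0.739%, so that little excess over all genes was left with the latter. The count was 13 with slide row 1 alone, where 2.36% of all genes were called higher, and 44 with slide row 2 alone, where 5.65% were. Without arrays 8 and 5 it was 6, without arrays 8 and 7 it was 10, without arrays 6 and 5 it was 13 and without arrays 6 and 7 it was 14. In the same order, 1.63%, 1.97%, 1.93% and 2.1% of all genes were called higher in those settings.

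**Figure D4:**
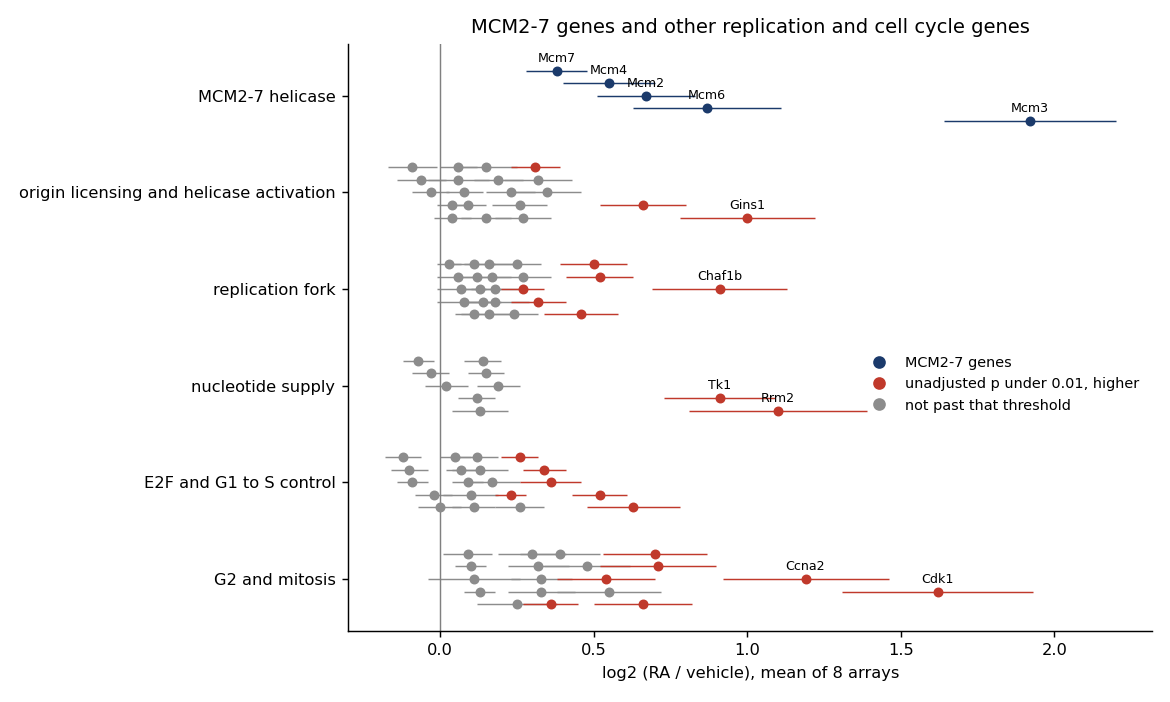
Log2 fold change of RA over vehicle (horizontal axis, mean of 8 arrays with its standard error) of the measured MCM2-7 genes and of the genes of 5 other lists (vertical axis). Dark blue marks the MCM2-7 genes, red the genes higher at an unadjusted p under 0.01 and grey the rest. With the background correction used here, Mcm3 at 1.92 lies to the right of every other gene shown, with Cdk1 at 1.62 next, whereas with plain subtraction Ccna2 at 2.25 and Cdk1 at 2.23 lie beside Mcm3 at 2.21.

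In origin licensing and helicase activation, 3 of 20 measured genes were higher and 17 did not pass the threshold, with a median of 0.15. Gins1 was at 1.00 (SE 0.22, adjusted p = 0.267) and ranged from 0.34 to 1.88. Cdc45, which with GINS completes the active helicase, was at 0.66 (SE 0.14, adjusted p = 0.258) and ranged from 0.21 to 1.24. These partners of the ring were above 0 on all 8 arrays. Cdc6, a loading factor, was not well above background on any vehicle array and was so on only 4 RA arrays. Set against a bound on the vehicle signal, it was 1.23-fold higher in RA (adjusted p = 0.283). The loading factor Cdt1 and Mcm10, which binds the ring at activation, were not well above background on any vehicle array either. They were so on only 4 and 5 RA arrays. Against the same kind of bound their signals were 1.15-fold and 1.22-fold higher in RA and did not pass (adjusted p = 0.347 and 0.368). Their lowest arrays were at -0.13 and -0.02. The Cdt1 inhibitor Gmnn, at 0.35, did not pass (adjusted p = 0.337). The MCM relatives outside the ring did not pass either, with Mcm8 at 0.06 and the MCM-binding protein gene Mcmbp at 0.26, and the origin recognition genes Orc2 to Orc6 lay between -0.09 and 0.08. Orc1 was not well above background on any vehicle array and was so on only 3 RA arrays. Against such a bound it was 1.20-fold higher in RA and did not pass (adjusted p = 0.369), with its lowest array at -0.21.

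At the replication fork 6 of 23 genes were higher, and all 23 were above 0 with a median of 0.17. Chaf1b, a histone chaperone subunit of chromatin assembly factor 1, was at 0.91 (SE 0.22, adjusted p = 0.270). Pold1, the catalytic subunit of DNA polymerase delta, was at 0.52 (SE 0.11, adjusted p = 0.257). Timeless, a fork protection factor, was at 0.50 (SE 0.11, adjusted p = 0.257). The sliding clamp Pcna was at 0.46 (SE 0.12, adjusted p = 0.285) and the DNA ligase Lig1 at 0.32 (SE 0.09, adjusted p = 0.297). These 5 genes were above 0 on all 8 arrays.

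Of 10 nucleotide supply genes 2 were higher. Rrm2, the S-phase subunit of ribonucleotide reductase, was at 1.10 (SE 0.29, adjusted p = 0.287) and ranged from 0.17 to 2.56, and thymidine kinase Tk1 was at 0.91 (SE 0.18, adjusted p = 0.246). The other subunit of the reductase, Rrm1, was at 0.02 and did not pass.

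Among 20 genes of E2F and G1 to S control, 6 were higher. Myc was at 0.63 (SE 0.15, adjusted p = 0.268), Ccnd1, the cyclin D1 gene, at 0.52 (SE 0.09, adjusted p = 0.222), and E2f1, an activator of the MCM2-7 promoters, at 0.36 (SE 0.10, adjusted p = 0.305). The other measured E2F genes, E2f3, E2f6 and E2f7, were at 0.07, 0.05 and -0.10 and did not pass. The kinases Cdk4 and Cdk2 were at 0.34 and 0.26 (adjusted p = 0.254 and 0.268). The cell cycle inhibitor Cdkn1a was at 0.00 (adjusted p = 0.998).

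In G2 and mitosis 7 of 19 genes were higher, the largest share of the 5 lists, and all 19 were above 0 with a median of 0.36. Cdk1, the mitotic kinase, was at 1.62 (SE 0.31, adjusted p = 0.227) and ranged from 0.48 to 2.93. Its partner Ccna2 was at 1.19 (SE 0.27, adjusted p = 0.268). The checkpoint kinase gene Bub1 was at 0.71, the survivin gene Birc5 at 0.70 and the kinase gene Plk1 at 0.66 (adjusted p = 0.286, 0.268 and 0.270). Ccna2 was well above background on only 4 vehicle arrays and Bub1 on 6, and with plain background subtraction they were at 2.25 and 1.53. Gins1, Timeless and Cdk2 also moved by over 1.5 times, to 1.57, 1.00 and 0.52. The dim Cdc6, Cdt1 and Mcm10 moved by more, from 0.31, 0.23 and 0.32 to 1.45, 1.08 and 1.65. Mki67 and Top2a, common markers of dividing cells, had no matched probe.

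Markers of several cell types moved along with the MCM2-7 genes, in lists written with earlier results of these data known. Some lists overlap, as Cd44 is in both the reactive astrocyte and the macrophage list. The reactive astrocyte list also shares Gfap with the astrocyte list, and Vim and Nes with the list of ependymal cells and tanycytes. Of all genes, 3.52% were called higher and 0.792% lower. Of 11 measured reactive astrocyte markers 9 were higher and 0 lower, with a median of 1.40, and their summed intensity was 10600 to 49900 in RA and 5830 to 8930 in vehicle. Of 13 microglia markers 7 were higher and 1 lower, with summed intensities of 43100 to 106000 in RA and 33500 to 56800 in vehicle. Of 8 monocyte and macrophage markers 5 were higher and 0 lower, with sums of 10400 to 44500 and 6290 to 12300, and Ccr2 was not well above background on any vehicle array. Their array medians also differed between slide rows, at 0.47 to 0.79 on arrays 1 to 4 and 1.69 to 2.67 on arrays 5 to 8 for reactive astrocytes, and at 0.22 to 0.45 and 0.99 to 1.13 for microglia. T and B cell markers were low, with sums of 541 to 976 in RA and 533 to 622 in vehicle, and Cd3e, Cd2 and Cd79b were not well above background on any vehicle array. Of 6 measured markers of oligodendrocyte precursors, a glial cell type that keeps dividing in the adult brain, 0 were higher and 1 was lower, with a median of -0.09. Of the 14 hypothalamic genes with a probe, 13 were well above background in both channels of all arrays, 0 were higher and 1 was lower. The part of these cells in the MCM2-7 ratios was not tested.

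**Figure D5:**
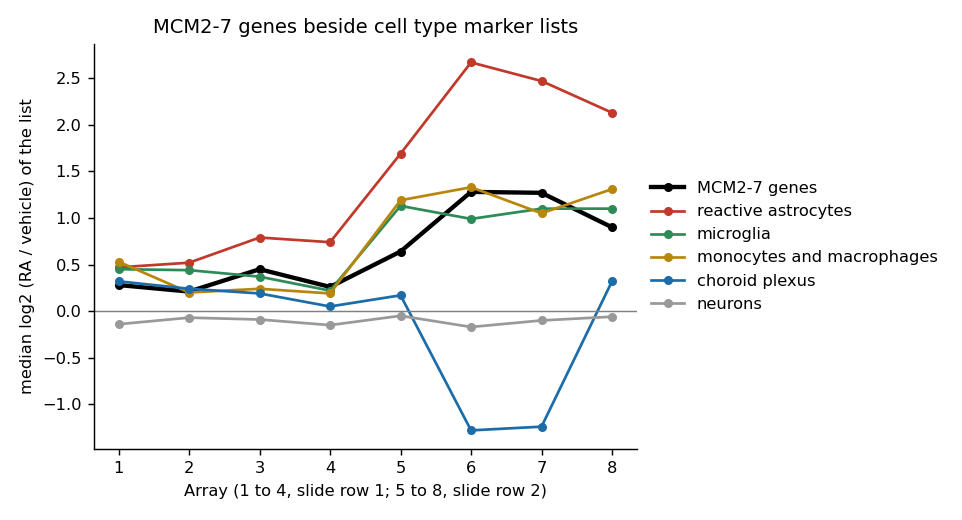
Median log2 ratio of RA over vehicle (vertical axis) on arrays 1 to 8 (horizontal axis) for the 5 measured MCM2-7 genes (black) and for 5 cell type marker lists (colours). The lines join the medians of a list. The MCM2-7 median is 0.21 to 0.45 on arrays 1 to 4 and 0.64 to 1.28 on arrays 5 to 8, and the choroid plexus list is at -1.28 and -1.24 on arrays 6 and 7.

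Arrays 6 and 7, on which Mcm2, Mcm4, Mcm6 and Mcm7 were highest, also stood apart in choroid plexus genes. The median of 8 such markers was -1.28 and -1.24 there and between 0.05 and 0.32 on the other arrays, and the transthyretin gene Ttr was at -4.48 and -5.11 there and above 0 elsewhere. Without arrays 6 and 7 the log2 fold changes were 1.63 for Mcm3, 0.53 for Mcm6, 0.46 for Mcm2, 0.35 for Mcm4 and 0.26 for Mcm7. Arrays 5 and 8 differed in Agrp, the hunger peptide of the arcuate nucleus, at -1.11 and -1.04, compared with -0.09 to 0.05 on the others. Arrays 6 and 7 have opposite dye orders, as do arrays 5 and 8. Each of these pairs may be a dye-swap of the same samples, which the labels do not say, so its arrays are not separate observations. All 5 subunits were above 0 on arrays 1 to 4 too, where Ttr was at 0.57 to 1.76. Whether these differences between arrays had a part in the MCM2-7 ratios was not tested.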

How the data were processed

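Hypothalamic RNA of RA- and vehicle-injected rats was measured on 8 two-colour Agilent rat arrays on 1 slide, all read with Feature Extraction 10.7.3.1 per the file headers. The deposited scan files hold median spot intensity and background of both dyes and the log10 ratio of the image software, and the authors also deposited a normalised log2 ratio table, made with limma per the labels. The main analysis started from the scan intensities. In R 4.3.3 with limma 3.58.1, normexp (offset of 50) was applied to the background, outlier spots and controls were left out, arrays were normalised by loess and spots of a probe were averaged. Ratios were turned to RA over vehicle. Levels of single channels are log2 intensities after a further Aquantile step.

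As the labels do not pair arrays, limma was fitted to the means of 4 pairs, 1 array of each dye order, for all 24 pairings, and the largest p of a probe was kept with its standard error. Called means an unadjusted p under 0.01, the threshold of the study's methods, and Benjamini-Hochberg adjustment covered 30367 probes. The labels do not say that replicates are separate animals, so p-values measure the spread between these arrays. Probes were named through RefSeq accessions, which named 18006 probes of 15159 genes, and the brightest probe stood for a gene. Between 57.4% and 74.6% of probes were well above background in RA and between 61.2% and 74.5% in vehicle. The share followed the dye, at 67.6% to 74.6% in Cy5 channels and 57.4% to 66.5% in Cy3 channels of either group. Counts of RA and vehicle channels well above background thus depend on the dye too. The number of arrays limits the precision. Where a probe was not well above background on any vehicle array, the fold was taken against a bound on vehicle. The bound was the higher of its own vehicle signal and the lowest signal well above background. Such a fold is not a firm minimum, since the RA signal of these probes was not well above background on every array either.

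The members and all gene lists were chosen with earlier results of these data known. Named were all members, up to 5 called genes of each list with the largest change, Cdc6, Cdt1, Gmnn, Mcm10, Cdc45, Pcna, Mki67, Top2a, Ccnd1, Cdkn1a and E2f1, and the 5 genes most correlated with Mcm3 and with the median of the other subunits. One gene that this rule names is not reported here. Rrm1, Mcm8, Mcmbp, Orc1 to Orc6, E2f3, E2f6 and E2f7 were named in addition after their values were seen. The marker lists for astrocytes, oligodendrocytes, neurons, ependymal cells and tanycytes, endothelium and neutrophils had 1 of 8, 0 of 7, 0 of 6, 1 of 8, 0 of 8 and 2 of 5 genes called higher, and 1 astrocyte and 1 neuron marker was called lower. The script was tested on simulated data. Alternatives covered background correction, normalisation, probe choice, dye order, slide row, the fit and leaving out pairs of arrays.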

Additional observations from a re-analysis of the deposited data

How the results depend on the processing

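The log2 fold changes of Mcm2, Mcm3, Mcm4 and Mcm7, the median of the measured subunits and the excess of Mcm3 over the median of the others stayed above 0 under all 29 alternatives run for them and moved by less than the SD over arrays. Their ranges were 0.31 to 1.02, 1.19 to 2.64, 0.21 to 0.89, 0.14 to 0.62, 0.31 to 1.02 and 0.93 to 1.69. For single genes in settings by slide row, dye order or left-out arrays, both outcomes were fixed in advance. Every array was above 0 and the SD covers the same arrays, so nothing is read from those settings. Mcm6 moved by more than that SD with plain background subtraction (1.73) and with the log ratio of the image software (1.62), and it had no value among probes well above background on all arrays. The number of other replication and cell cycle genes called higher, 24 with the main setting, was 5 with plain background subtraction, 1 with the log ratio of the image software, 15 among probes well above background, 13 with slide row 1 alone, 44 with slide row 2 alone, 43 with 8 independent arrays and a dye term, 39 with pairs as a random block, 41 with slide row as a block and 0 at an adjusted p under 0.05. Leaving out 1 array of each dye order gave 6 to 36, the lowest without arrays 8 and 5. The share of all genes called higher also differed between settings. It was 7.04% with 8 independent arrays, 5.42% with pairs as a random block and 5.77% with slide row as a block. All genes called higher numbered 534 with the main setting, 150 with plain subtraction and 112 with the image software's ratio, where the calls fell as well, and the cause was not tested. Of 811 values of the 24 other named genes of the lists under alternatives, 647 kept their side of the threshold, 143 lost it, 21 gained it and 0 called ones changed sign. Dim probes limit Mcm6, Cdc6, Cdt1, Mcm10, Orc1, Ccna2 and Bub1. The labels do not say which arrays share RNA, so the largest p over all 24 pairings of the dye orders was used.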
